A study of Mus musculus with 6 samples.

Results

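The transcription factors Foxe1, Nkx2-1, Pax8, Hhex and Glis3, which act in the thyroid bud or the thyroid follicular cell, were followed on 6 whole-transcript Affymetrix arrays of mouse thyroid. They were taken by name as 5 of the 19505 named genes in the deposited table of 22206 probe sets, and each of the 5 had 1 probe set. The 3 Foxe1flox/flox/Cre mice, called knockouts here, carried a floxed Foxe1 gene and a Cre recombinase, and the 3 Cre controls carried Cre without the floxed gene. All 6 mice were of a C57BL/6J background and were given intraperitoneal tamoxifen at 0.05 g/kg on each of 5 days at an age of 6 to 8 weeks, the controls included. The thyroid was taken 2 weeks after treatment, and RNA of 1 lobe per animal went on 1 array. The sources used here do not state which promoter drives Cre, in which cells it acts, or the sex of the animals. The array readings are log2 values, so that 1 unit is a doubling, and differences are given as knockout minus control.

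Foxe1, Nkx2-1, Pax8 and Hhex are co-expressed in the thyroid bud of the embryo and stay on together in the adult follicular cell, a combination not found in any other tissue. Nkx2-1 and Hhex are homeobox proteins, Pax8 is a paired-domain protein, Foxe1 is a forkhead protein and Glis3 is a Krüppel-like zinc finger protein. Nkx2-1, Pax8 and Foxe1 bind control regions of the thyroglobulin gene, Pax8 and Glis3 act on the sodium iodide symporter gene, and the factors are known to act on each other's expression in the bud. Each is also expressed elsewhere: Nkx2-1 in lung, airway, C cells and forebrain, Pax8 in kidney, Hhex in endothelium, liver and B cell precursors, Glis3 in kidney and pancreatic beta cells, and Foxe1 in oral and oesophageal epithelium. The comparison asks what became of the other factors when Foxe1 was deleted in the adult gland.

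The data behind these values are limited to 3 arrays a group, which sets their precision. Array medians lay between 5.62 and 5.69 and lower quartiles between 3.49 and 3.60, and every pair of arrays correlated at 0.97 or above across probe sets. Thyroglobulin read between 18.67 and 19.27 on all 6 arrays, so each lobe held abundant follicular RNA. The 3 measured Y-linked genes averaged 8.03 to 8.30 on 4 arrays and 3.04 and 2.65 on control 1 and knockout 3, so both groups held 1 array without this signal. RNA of neighbouring tissue was in the lobes too, as described below. In bulk tissue, a change in the number of cells of a type and a change in RNA per cell cannot be told apart.

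The regulatory sequence just before a gene's start is shown for the pair of factors besides Foxe1 whose knockout readings all lay above the controls, Hhex and Pax8, and for 2 genes described below whose windows hold the core bound by NK2 homeobox proteins such as Nkx2-1. Each line gives the 250 bases before the start annotated by RefSeq (build GRCm38.p6), 5′ to 3′ on the strand of the gene, and capitals mark a match to a searched motif. Hhex lies on the plus strand at chr19:37434591-37434840, Pax8 on the minus strand at chr2:24475600-24475849, Iyd on the plus strand at chr10:3540024-3540273 and the first of 3 Kcnip3 starts on the minus strand at chr2:127522095-127522344.
Hhex: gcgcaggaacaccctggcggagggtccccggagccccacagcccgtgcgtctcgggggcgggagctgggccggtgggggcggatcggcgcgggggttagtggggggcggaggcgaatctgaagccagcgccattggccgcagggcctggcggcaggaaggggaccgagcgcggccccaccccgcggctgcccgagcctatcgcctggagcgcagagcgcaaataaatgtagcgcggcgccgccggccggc
Pax8: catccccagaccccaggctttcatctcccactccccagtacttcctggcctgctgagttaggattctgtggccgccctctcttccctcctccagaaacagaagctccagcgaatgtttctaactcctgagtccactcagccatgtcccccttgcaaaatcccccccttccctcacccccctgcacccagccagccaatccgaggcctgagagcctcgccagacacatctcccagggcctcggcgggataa
Iyd: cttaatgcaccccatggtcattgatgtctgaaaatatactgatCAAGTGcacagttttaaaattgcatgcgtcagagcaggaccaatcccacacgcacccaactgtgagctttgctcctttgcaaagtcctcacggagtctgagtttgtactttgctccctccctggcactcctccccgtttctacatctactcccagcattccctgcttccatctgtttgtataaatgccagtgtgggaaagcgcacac
Kcnip3: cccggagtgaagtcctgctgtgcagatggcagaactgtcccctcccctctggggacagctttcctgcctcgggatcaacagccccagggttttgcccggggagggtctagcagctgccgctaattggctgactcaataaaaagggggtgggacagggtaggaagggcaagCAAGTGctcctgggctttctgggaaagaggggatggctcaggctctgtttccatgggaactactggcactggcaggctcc

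The motifs searched on both strands, in windows from 250 bases before to 50 after the start, were the forkhead core TAAACA, the NK2 core CAAGTG, the Pax core GTCACG and the homeodomain core TAATTA. Each printed line holds at most 1 match, so no matches overlap there. Of all 32851 windows of that length in the RefSeq table, 13.4% held the forkhead core, 13.6% the NK2 core, 8.22% the Pax core and 5.29% the homeodomain core. The windows of Nkx2-1, Pax8, Hhex and Glis3 held none of the 4 motifs; Foxe1 was not matched. The Hhex window shown is 76% G and C, against 60.4% for Pax8. Iyd held the NK2 core 207 bases before its start and Kcnip3 80 bases before its first start, with none at its other starts. These genes were shown because they held it. The NK2 core was found in 1 of 10 hormone synthesis genes and in 3 of 16 cofactors and partners with a window, against 15.4% of all genes. The partner gene Sufu, which also held it, differed by 0.02 between the groups. A match to 6 letters is a description of the sequence and says nothing of binding.

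Foxe1, the deleted gene, checked the labels. Controls 1 to 3 gave readings of 7.60, 7.19 and 7.04, and knockouts 1 to 3 gave 3.33, 2.88 and 3.04. The lowest control and the highest knockout were 3.71 apart, against ranges of 0.56 and 0.45 within the groups. Within its array each knockout reading ranked among the dim probe sets, from percentile 9.28 to percentile 21.3, while the controls ranked from percentile 61.2 to percentile 66.0. Foxe1 fell by 4.19 (SE 0.22, 95% interval -4.69 to -3.70, limma adjusted p = 0.000442), the third lowest difference and the smallest p of all 22206 probe sets. The sources used here do not say whether its probes fall inside the floxed segment, and readings this dim may be background, which would make the fold an underestimate.

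**Figure D1:**
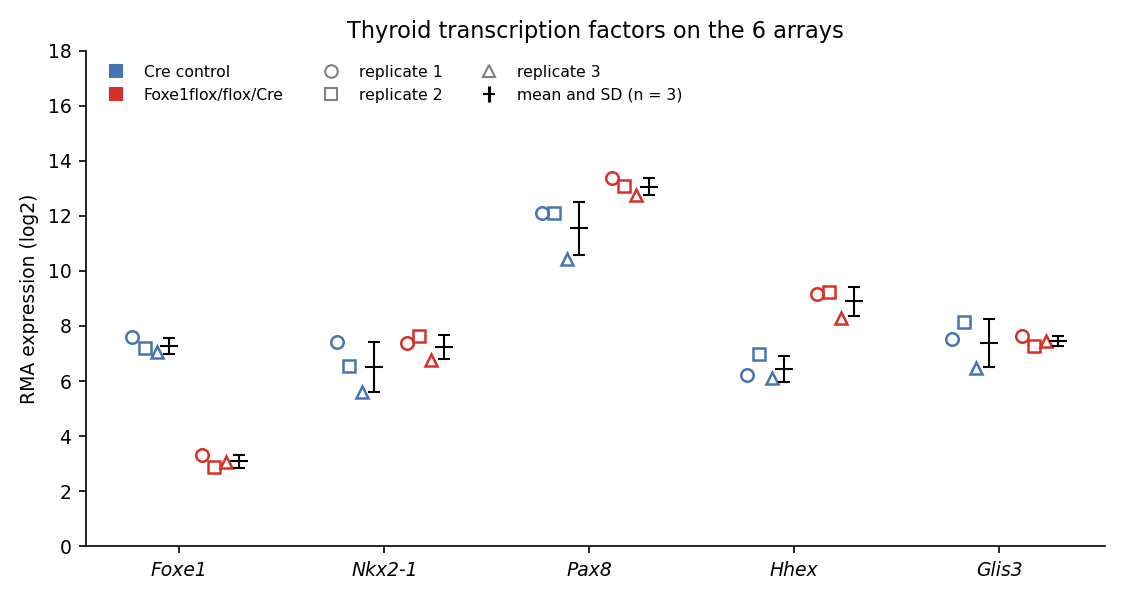
RMA expression (log2, linear axis from 0) of the 5 factors on each array, in blue for Cre controls and red for Foxe1flox/flox/Cre, with a symbol per replicate and the mean and SD of 3 arrays beside them. The groups are apart for Foxe1, Hhex and Pax8, and control 3 (blue triangle) is the lowest control for all 5 factors.

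Hhex, a homeobox factor needed for the bud to survive and grow, was higher in every knockout. The control readings were 6.21, 6.99 and 6.12, and those of the knockouts 9.16, 9.25 and 8.29. The highest control and the lowest knockout were 1.30 apart, more than the range within either group (0.87 and 0.96). The means were 6.44 ± 0.48 and 8.90 ± 0.53 (SD, n = 3 each), so Hhex rose by 2.46 (SE 0.32, 95% interval 1.72 to 3.20, limma adjusted p = 0.0273), or 5.50-fold. That was the 26th largest rise of all probe sets. The call did not survive the loss of any single array: the rise stayed between 2.29 and 2.77, with adjusted p between 0.0591 and 0.107.

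Pax8, the paired-domain factor that drives the thyroglobulin and symporter genes, also read higher in each knockout but did not pass the test. The controls read 12.12, 12.10 and 10.42, while the knockouts read 13.37, 13.08 and 12.75. The difference was 1.52 (SE 0.43, 95% interval 0.54 to 2.50, adjusted p = 0.183), the 193rd largest of all probe sets. The gap between the groups was 0.63, smaller than the 1.70 between the highest control and control 3. Without control 3 the difference was 0.96 (adjusted p = 0.208).

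Nkx2-1, the homeobox factor shared by thyroid, lung and airway, overlapped between the groups. Readings were 7.41, 6.56 and 5.59 for the controls, and 7.37, 7.62 and 6.77 for the knockouts. Control 1 stood above knockouts 1 and 3, and control 3 was the lowest of the 6. The difference was 0.73 (SE 0.43, 95% interval -0.24 to 1.71, adjusted p = 0.528), so that a moderate rise and a small fall are both within the interval. It was 0.27 without control 3 and 1.18 without control 1.

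Glis3, the zinc finger factor of thyroid hormone synthesis, read 7.54, 8.15 and 6.46 in controls and 7.64, 7.29 and 7.44 in knockouts. All 3 knockouts lay inside the range of the controls. The difference was 0.07 (SE 0.38, 95% interval -0.79 to 0.94, adjusted p = 0.962), and it took the other sign without control 3 (-0.39) or without knockout 1 (-0.02).

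Of the 5 factors, then, 2 passed the threshold, 1 in each direction, and the knockout and control readings of 3 did not overlap. Over all probe sets 0.338% passed, 0.252% upward and 0.0856% downward, and 18.1% did not overlap, 9.28% with the knockouts on top. Foxe1 is the targeted gene, so 1 of the other 4 factors passed. A two-sided exact permutation test of 3 arrays against 3 cannot go below 0.1, the value for Foxe1, Hhex and Pax8; it was 0.3 for Nkx2-1 and 0.9 for Glis3.

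Whether the other 4 factors differed from each other in their change was asked on the difference of 2 factors within each array, for 6 pairs. The genotype difference was 2.39 larger for Hhex than for Glis3 and 1.45 larger for Pax8 than for Glis3, and that of Nkx2-1 minus that of Hhex was -1.73, in each case with no overlap of the groups and at the smallest exact permutation p of 0.1 (0.2 adjusted over the pairs). The Nkx2-1 and Pax8 values differed by -0.79, those of Pax8 and Hhex by -0.94 and those of Nkx2-1 and Glis3 by 0.66, all 3 with overlap and with exact permutation p of 0.2 or 0.3 (0.24 or 0.3 adjusted). The exact test used here cannot pass 0.05 with 3 arrays a group, so these p-values do not tell the pairs apart.

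The spread over arrays differed among the factors. The SD within groups, pooled over both, was 0.26 for Foxe1, 0.50 for Hhex, 0.62 for Glis3, 0.71 for Nkx2-1 and 0.72 for Pax8. When all probe sets were divided into 10 classes by mean level, the median SD in the class was 0.32 for Foxe1, 0.31 for Hhex, Glis3 and Nkx2-1, and 0.25 for Pax8. Nkx2-1 stood at the 96.4th percentile of its class, Pax8 at the 95.4th, Glis3 at the 92.8th, Hhex at the 84.1th and Foxe1 at the 32.6th. For all but Hhex it was wider in the controls. Pax8 ranged over 1.70 in the controls and 0.62 in the knockouts, Glis3 over 1.69 and 0.35, Nkx2-1 over 1.82 and 0.85, and Foxe1 over 0.56 and 0.45. Hhex ranged over 0.87 in the controls and 0.96 in the knockouts.

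**Figure D2:**
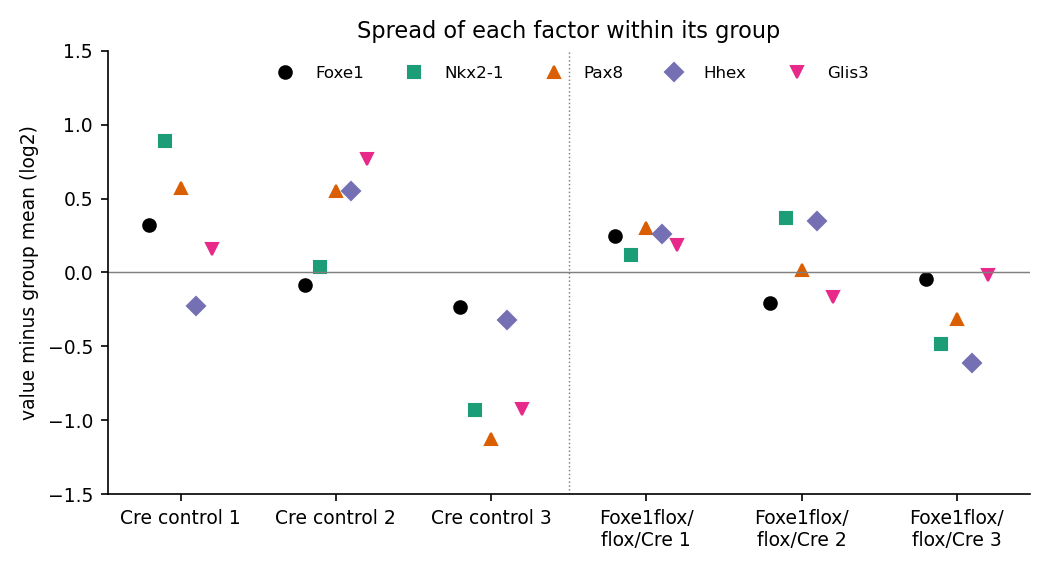
Each factor's value minus the mean of its own group (log2) on the 6 arrays, controls on the left and knockouts on the right of the dotted line. In control 3 all 5 factors lie below their group mean, from -0.24 for Foxe1 to -1.13 for Pax8, and in knockout 3 Nkx2-1, Pax8 and Hhex lie lowest.

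Control 3 was the lowest control for all 5 factors, where it was the lowest for 32.6% of all probe sets with a single lowest control. It lay 0.24 below the control mean for Foxe1, 0.32 for Hhex, 0.92 for Glis3, 0.93 for Nkx2-1 and 1.13 for Pax8. The same array was the lowest control for 9 of the 14 thyroid hormone synthesis genes and for 6 of the 8 follicular epithelium markers that had a single lowest control. Its thyroglobulin reading was 18.67, against 19.26 and 18.93. In the knockouts, knockout 3 was the lowest for Nkx2-1, Pax8 and Hhex, where it was the lowest for 36.1% of all probe sets with a single lowest knockout. Foxe1 had its lowest knockout reading, 2.88, in knockout 2.

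Genes of thyroid hormone synthesis, among them known targets of these factors, were mostly higher in the knockouts, with none past the threshold. Of 14 measured genes 12 had positive differences, 5 had an unadjusted p under 0.05, all upward, and 6 had all knockouts above all controls. Over all probe sets 46.8% had positive differences, 12.7% had an unadjusted p under 0.05 in either direction and 9.28% had all knockouts on top. The median difference was 0.38, against -0.02 over all probe sets. Slc5a5, the sodium iodide symporter and a Pax8 target, read 8.00, 8.00 and 2.97 in controls and 11.50, 10.34 and 11.61 in knockouts (4.83, adjusted p = 0.14). The low reading came from control 3, as for Pax8. It ranked at percentile 10.5 of its array and may be background, and the size of the Slc5a5 difference leans on it. Cdh16, a kidney and thyroid cadherin under Pax8, read 9.65, 8.93 and 7.59 in controls and 10.71, 10.70 and 10.40 in knockouts (1.88, adjusted p = 0.132). Iyd, which recycles iodide and whose window with the NK2 core is shown above, read 11.56, 11.49 and 9.46 against 13.05, 12.65 and 13.12 (2.10, adjusted p = 0.136).

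For those 3 genes, as for Pax8, the groups were apart and control 3 was the lowest array. Tshr, the thyrotropin receptor, differed by 1.75 and Duox1, which makes the peroxide for iodination, by 1.11, and for both the knockouts lay above the controls (adjusted p of 0.167 and 0.216). The other members differed little or overlapped: the deiodinase Dio1 by 0.86, the anion transporters Slc26a4 by 0.41 and Slc26a7 by 0.25, the chloride channel Ano1 by 0.35, the potassium channel subunits Kcnq1 by 0.30 and Kcne2 by 0.07, thyroglobulin, Tg, by 0.04, Tff3 by -0.07 and the oxidase maturation factor Duoxa2 by -1.07, with adjusted p of 0.414 or more. Slc26a4, Kcne2 and Tff3 read below the lower quartile on every array. Tg, bound by Nkx2-1, Pax8 and Foxe1, lay near the top of the scale, 19.93, where differences are compressed.

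**Figure D3:**
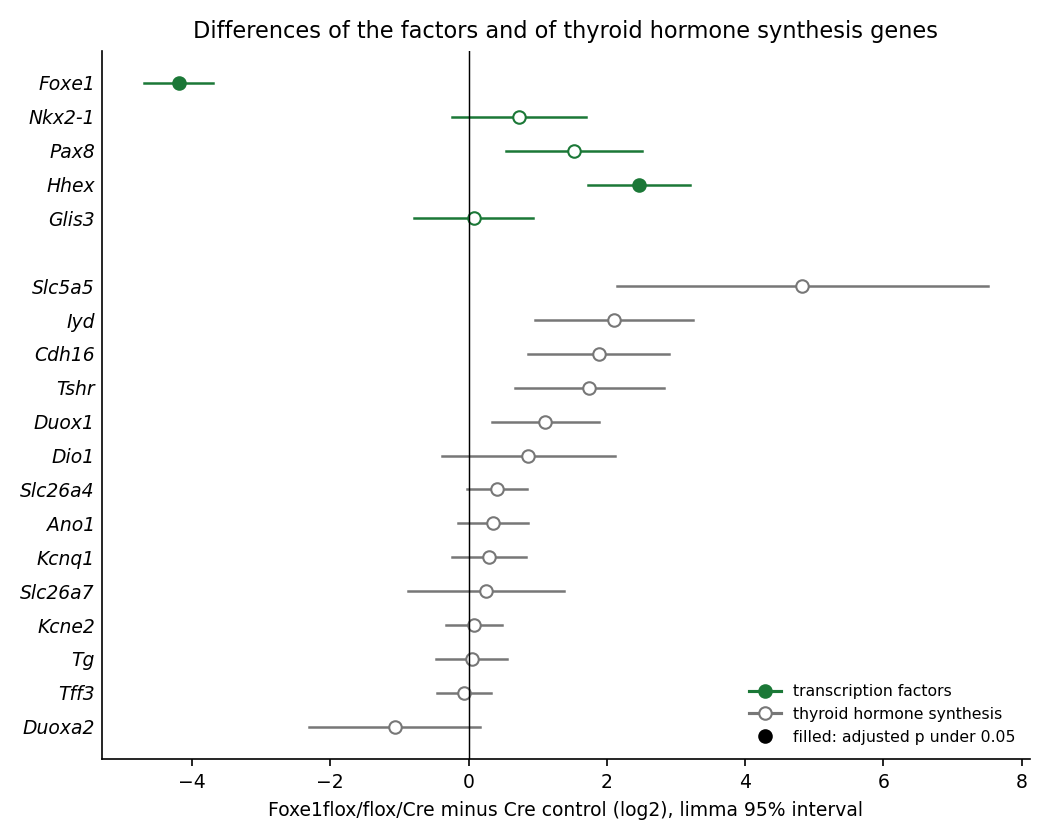
Knockout minus control differences (log2) with limma 95% intervals for the 5 factors (green) and 14 thyroid hormone synthesis genes (grey), with filled points for adjusted p under 0.05. Foxe1 and Hhex are the filled points, and the intervals of Pax8, Slc5a5, Iyd, Cdh16, Tshr and Duox1 lie above 0 without passing the threshold over all probe sets.

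Transcripts of proteins that bind or assist these factors mostly differed little. Of 17 measured cofactors and partners 11 had positive differences and none passed (median 0.08). Kcnip3, also called DREAM, a calcium-dependent repressor that associates with thyroid factors, read 11.92, 11.27 and 9.46 in controls and 13.71, 14.17 and 13.73 in knockouts. The groups were apart by 1.79, control 3 was again the lowest, and the difference of 2.99 had an adjusted p of 0.0665. Of the fits that left out 1 array, Kcnip3 passed the threshold only in that without control 1 (3.51, adjusted p = 0.0494). The next smallest p values in this list belonged to the nuclear factor I genes Nfib (-0.46) and Nfic (-0.43) and to the cell cycle regulator Rb1 (0.25), with adjusted p of 0.412 or more. Wwtr1, the coactivator TAZ of Pax8 and Nkx2-1, differed by 0.09 (adjusted p = 0.904).

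The closest relatives of the factors read low, and none passed. Of 11 paralogs 6 read below the lower quartile on every array, and the median difference was 0.07. Foxe3, the sister gene of Foxe1, read between 2.08 and 2.37 on the 6 arrays (difference 0.09). Pax2 and Pax5, of the Pax8 subfamily, differed by 0.12 and 0.11, and of the NK2 genes Nkx2-2 differed by -0.06, Nkx2-3 by 0.17, Nkx2-4 by 0.09, Nkx2-5 by 0.01, Nkx2-6 by 0.07 and Nkx2-9 by -0.02. Glis1 differed by -0.05. Glis2, a relative of Glis3, read 4.73, 4.86 and 4.27 in controls and 4.24, 4.09 and 3.93 in knockouts, with no overlap (-0.53, adjusted p = 0.341).

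Regulators of thyroid and pharyngeal development moved in both directions and none of 26 passed. The median difference was -0.13, 17 were negative and 9 positive, where 46.8% of all probe sets were positive, and the groups did not overlap for 7, where 18.1% of all probe sets did not. Foxa1, a forkhead pioneer factor of foregut epithelium, read 8.42, 8.61 and 8.19 in controls and 7.55, 7.14 and 7.32 in knockouts (-1.07, adjusted p = 0.0737), and Foxa2 differed by -0.43. The pharyngeal arch genes Eya1 and Six4 differed by -1.06 and -0.95, with all knockouts below all controls (adjusted p of 0.136 and 0.15). Higher in each knockout were Sox9, a factor of epithelial progenitors (1.42, adjusted p = 0.172), the Notch ligand Jag1 (0.98, adjusted p = 0.146) and the fibroblast growth factor receptor Fgfr2 (0.54, adjusted p = 0.249).

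Genes that Nkx2-1 controls in lung and airway did not move together. Of 10 measured genes 1 passed the threshold, where 0.338% of all probe sets passed. It was Napsa, an aspartic protease of lung epithelium, which rose by 3.94 (adjusted p = 0.025), from readings of 11.67, 11.46 and 9.71 to 15.25, 14.75 and 14.66. Of the rest, 7 had negative differences, where 46.8% of all probe sets had positive ones. Among the 7 were the surfactant protein Sftpd at -1.40 (adjusted p = 0.124), the secretoglobins Scgb1a1 and Scgb3a2 at -1.17 and -1.19 and the surfactant protein Sftpa1 at -0.98. The airway marker list, which shares 3 secretoglobins with these genes, was negative in 8 of 9 and averaged 12.98 to 14.06 on the control arrays and 12.49 to 12.75 on the knockout arrays. Its highest array was control 1, which also had the highest Nkx2-1 reading of the controls. Other arrays did not follow that order. Control 3, lowest for Nkx2-1 (5.59), averaged 13.10 for the airway list, above control 2 (12.98, Nkx2-1 6.56). Knockout 2, highest for Nkx2-1 (7.62), averaged 12.54, below every control. The part of airway tissue in the readings of Nkx2-1, Foxa1 and Foxa2, which airway cells express, was not tested.

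Of the other tissues in which Hhex is known, endothelium and B cells were set beside it by their marker genes. No liver genes were listed, and the B cell list was not one of precursors alone. The 9 measured endothelial genes averaged 9.12, 9.18 and 9.26 in controls and 9.91, 9.60 and 8.37 in knockouts, with 4 positive and 5 negative differences (median -0.02). The averages of knockouts 1 and 2 lay above those of all controls. Knockout 3 was the lowest knockout for all 9, and its Hhex reading of 8.29 was also the lowest of the knockouts. The part of endothelium in the Hhex readings was not tested. Among the endothelial genes Flt1, a receptor of vascular endothelial growth factor, had its knockouts above the controls (1.06, adjusted p = 0.178) and Vwf, von Willebrand factor, had them below (-0.53, adjusted p = 0.351), while the other 7 overlapped, Pecam1 among them at -0.02. Over all probe sets 18.1% did not overlap. B cell markers lay low on all arrays: the 5 measured averaged 3.08 to 3.24 in the controls and 3.17 to 3.44 in the knockouts, and 3 read below the lower quartile throughout.

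Other tissue differed between lobes. Pth, the parathyroid hormone gene, read 18.24, 19.68 and 17.02 in controls and 3.56, 18.61 and 10.06 in knockouts. Knockout 2, whose parathyroid hormone reading lay within the range of the controls, read highest of the 6 for Hhex and Nkx2-1, second highest for Pax8 and lowest for Foxe1. That is 1 array, and the part of parathyroid tissue in the readings of the factors was not tested. The 9 measured C cell markers gave 4 positive and 5 negative differences and averaged 6.81 to 7.58 in the controls and 6.05 to 7.23 in the knockouts, a list that shares Chga with the 3 parathyroid markers. Follicular epithelium markers, of which Cdh16 and Tg are also in the hormone synthesis list, averaged 11.74 to 12.17 and 11.77 to 11.92, with 4 positive and 5 negative. The groups did not overlap for 5 of them, where 18.1% of all probe sets did not overlap. The keratins Krt7 and Krt19 lay below the controls in every knockout (-2.04 and -1.01), and Cdh16, the tight junction gene Cldn1 and E-cadherin, Cdh1, lay above (1.88, 0.93 and 0.26).

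**Figure D4:**
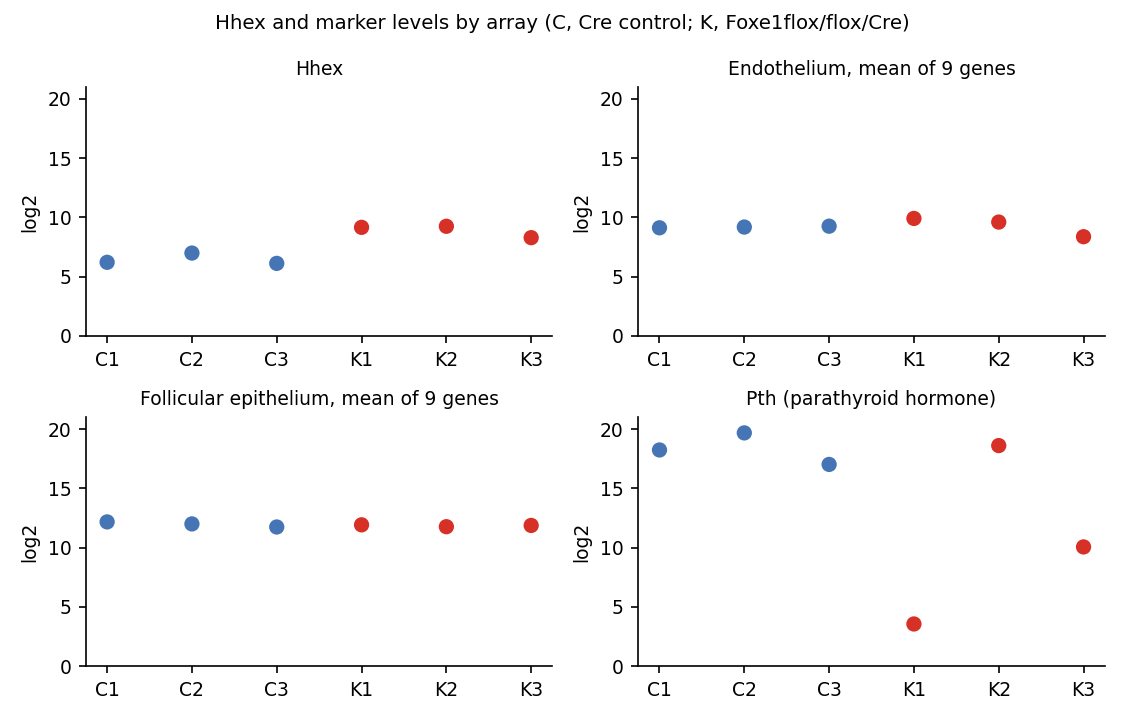
Levels (log2, linear axis from 0) of Hhex, the mean of 9 endothelial genes, the mean of 9 follicular epithelium genes and parathyroid hormone, Pth, on each array. Hhex is higher on all 3 knockout arrays. The endothelial mean is highest in knockouts 1 and 2 and lowest in knockout 3, and Pth is low in knockouts 1 and 3 alone.

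The remaining marker lists describe what else was in the lobes. All 9 skeletal muscle genes had negative differences, as did all 7 fibroblast and all 7 adipocyte genes, 6 of 7 macrophage genes and 6 of 7 T cell genes, while 9 of 11 squamous epithelium genes were positive. The muscle list averaged 16.55 to 16.68 on the control arrays and 15.29 to 16.32 on the knockout arrays, and the squamous list 13.95 to 14.41 and 14.53 to 15.22. None of these marker genes passed the threshold. Their part in the readings of the 5 factors was not tested.

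The genes whose pattern over the 6 arrays was most like each factor's were found among 9948 named genes above the median level, by the root mean square distance between profiles centred on their own mean. For Hhex they were Cep128, a centriolar protein gene (distance 0.33), Xpa, a DNA repair gene (0.37), the sushi domain gene Susd2 (0.39) and Alad, a haem synthesis enzyme (0.40), and 9 genes lay within 0.5. Of these Cep128, Xpa and Alad passed the threshold, with rises of 2.10, 2.09 and 2.60 (adjusted p of 0.0155, 0.0155 and 0.00231). By their probe set identifiers Xpa and Alad lie on chromosome 4, as does the targeted gene Foxe1. The part of the targeted chromosome in their readings was not tested. For Pax8 they were Rsph9, a radial spoke gene of cilia (0.16), Tmem116 (0.21), the developmental regulator Sox9 (0.25) and the glutathione transferase Gstt2 (0.27), each lowest in control 3, with differences from 1.40 to 1.91. For Nkx2-1 they were Rnf128, Arhgap26, Vkorc1l1 and Ptprm, at distances of 0.13 to 0.24.

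**Figure D5:**
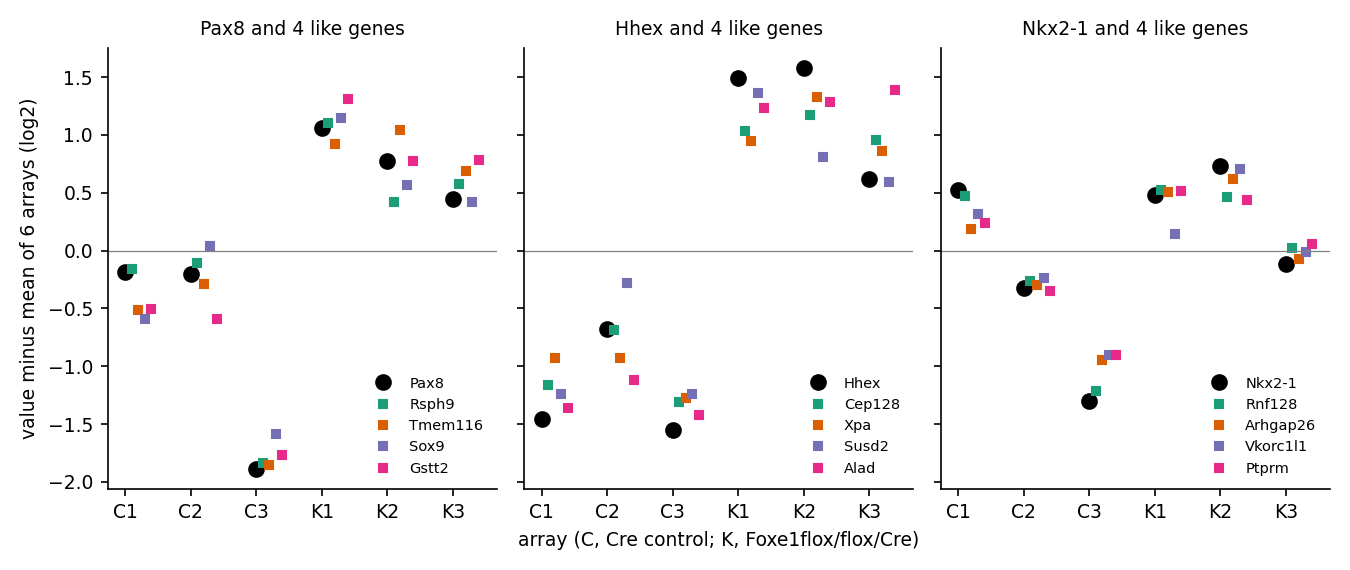
Values minus the mean of the 6 arrays (log2) for Pax8, Hhex and Nkx2-1 (black) and the 4 genes nearest to each (coloured), by array, with C for Cre control and K for Foxe1flox/flox/Cre. Pax8 and its like genes are lowest in control 3, the Hhex group splits between controls and knockouts, and the Nkx2-1 group runs through both.

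For Glis3 the nearest were Man2a1, Pkib, Slco2a1 and Atg4c, at 0.16 to 0.19, and 2394 genes lay within 0.5 of it. Foxe1 had no gene within 0.5. Its nearest were the keratin Krt76 (0.93), the mucin Muc1 (1.02), the secreted inhibitor Wfdc18 (1.07) and the aldehyde oxidase Aox4 (1.11), and all but Wfdc18 passed the threshold. Krt76 fell by 3.21, Muc1 fell by 2.17 and Aox4 fell by 2.43. The distance was taken over 6 arrays that include both groups, so a like pattern partly repeats the difference between groups.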

How the data were processed

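The authors deposited log2 expression values, 1 per probe set and array, which the submitters' processing notes credit to RMA and Affymetrix Expression Console. RMA ordinarily equalises the arrays, so a change shared by most transcripts is lost. The sources used here give no settings, version or genome build. Probe sets were named through the platform table of probes and genes, updated by gene identifier to RefSeq symbols: 19572 of 22206 carry 1 symbol and 2634 are unnamed here. The brightest probe set stood for a gene.

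Without further normalization or filtering, all probe sets were fitted with limma 3.58.1 in R 4.3.3 (lmFit, eBayes), with two-sided p-values adjusted by Benjamini-Hochberg over the whole table and a threshold of 0.05. The step was tested on simulated data with 50 changed probe sets of each size. It called 17 of those changed by 1 unit, 43 by 2, 48 by 3 and 50 by 4. Of its 172 calls 14 were false. Alternatives were other normalizations, variance models, array weights, filters on dim probe sets, the replicate block, the Y-linked level as a covariate and leaving out each array. Genes named were the 5 factors, all hormone synthesis genes and paralogs, the smallest p values of the other lists and the 4 most alike per factor. Flt1, Vwf, Pecam1, Pth, Krt7, Krt19, Cldn1, Cdh1, Wwtr1, Foxa2, Fgfr2 and Sftpa1 were chosen after their values were seen. Members, lists and the rule for named genes were chosen with earlier results of these data known.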

Additional observations from a re-analysis of the deposited data

How the results depend on the processing

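The direction of Foxe1, Hhex, Pax8 and Nkx2-1 was the same under all alternatives run. Variance models, filters and the replicate block cannot change a difference. Only the normalizations, array weights, the Y-linked covariate and leaving out an array could have turned it. Foxe1 ranged from -4.32 to -4.03 over the fits that left out an array and was called in each; an ordinary t statistic, which shares no variance between probe sets, gave it an adjusted p of 0.223 (-4.19) and Hhex one of 0.37 (2.46), and it called 0 probe sets, with 2208 at an unadjusted p under 0.05 (2828 in limma). Hhex lost its call in all 6 fits without an array (2.29 to 2.77, adjusted p 0.0591 to 0.107) and kept it under the other alternatives run, apart from the ordinary t statistic. Without an array Pax8 ranged from 0.96 to 1.81, Nkx2-1 from 0.27 to 1.18 and Glis3 from -0.39 to 0.46, reversed without control 3 (-0.39) and without knockout 1 (-0.02). The count of probe sets called, 75, was 2 to 43 without an array and 118 with a robust variance trend. The replicate numbers did not pair the arrays (correlations of same-numbered arrays of -0.01, 0.08 and 0.02). Used as a block, with 1 array of each group in it, they cannot move the differences: Foxe1 at -4.19, Hhex at 2.46, Pax8 at 1.52, Nkx2-1 at 0.73 and Glis3 at 0.07. The limma adjusted p did move, to 0.00435 for Foxe1, 0.0236 for Hhex, 0.0959 for Pax8, 0.343 for Nkx2-1 and 0.958 for Glis3. The calls of the factors were unchanged, and 63 probe sets were called. The medians of the 4 pathway lists moved by less than their spread over arrays, although without probe sets below the lower quartile that of hormone synthesis was 0.86 (0.38 with them) and that of the paralogs -0.05 (0.07 with them). At an unadjusted p of 0.05, 5 of 14 hormone synthesis genes, 1 of 11 paralogs, 7 of 26 development regulators and 1 of 17 cofactors passed, against 12.7% of all probe sets. Foxe1 lay below the filter at the median level, and a mean over probe sets was not run because each factor has 1. Dim readings, as of Foxe1 in the knockouts, limit fold changes.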
